A study of Mus musculus with 10 samples.

Results

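The 9 genes described here, Th, Ddc, Dbh, Slc18a2, Slc6a2, Phox2a, Chat, Slc18a3 and Slc5a7, make, package or take up the catecholamines and acetylcholine, or specify the neurons that do so. They were chosen by name as identity genes of autonomic and efferent neurons, and each of the 9 names matched 1 of the 54532 genes in the count files. RNA-seq counts came from cochlear tissue of mtKeima mice aged 12 months, and both groups carried this fluorescent reporter of mitochondrial turnover. In the NR group, 5 mice drank water with 7 mg/ml (24 mM) nicotinamide riboside (NR), an NAD+ precursor, for 10 months from the age of 2 months. The 5 non-treated mice, labelled Vehicle, received regular water. The comparison asks how long-term NR treatment changed the transcripts of the ageing cochlea.

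As background, tyrosine hydroxylase (Th) makes L-DOPA, DOPA decarboxylase (Ddc) turns it into dopamine, and dopamine beta-hydroxylase (Dbh) turns dopamine into noradrenaline. Slc18a2 encodes the vesicular monoamine transporter VMAT2, Slc6a2 the noradrenaline transporter of the plasma membrane, and Phox2a a homeobox factor of noradrenergic neurons. Choline acetyltransferase (Chat) makes acetylcholine, Slc18a3 encodes its vesicular transporter, and Slc5a7 encodes the choline transporter that feeds its synthesis. The cochlea receives sympathetic fibers from the cervical ganglia and olivocochlear efferent fibers from the brainstem. The cell bodies of these fibers, which hold most of their mRNA, lie outside the cochlea.

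Between 17060379 and 24419230 reads were counted on genes per mouse, and the group totals were not separated (p = 0.357, two-sided, exact permutation test). Levels are given in CPM, a gene's reads scaled to library totals with TMM factors. The tissue carried its neuronal and sensory markers. The summed level of 13 spiral ganglion genes lay between 5213 and 7933 CPM, and that of 8 hair cell genes between 135 and 412 CPM, with Vehicle replicates 3 and 4 highest. The labels call the mice female, while the methods describe male mice. Every library held 2 to 8 reads of Xist and at least 444 reads of each of the Y-linked genes Ddx3y, Eif2s3y, Kdm5d and Uty. By these reads all 10 libraries came from male mice, as in the methods and against the labels. In bulk tissue, fewer cells of a type and less RNA per cell cannot be told apart. The labels number the libraries as replicates without naming animals, so p-values measure the spread between these libraries, called mice here.

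The catecholamine pathway was read up to dopamine and its vesicular storage, with little beyond it. Per kilobase of gene length, Th had the highest level of the 9 genes, at 3.07 ± 1.40 CPM per kb (SD, n = 10 mice of both groups). Slc18a2 followed at 2.03 ± 0.42 CPM per kb, and Th exceeded it in 8 of 10 mice, with overlapping ranges. Ddc came next at 0.605 ± 0.225 CPM per kb, below Slc18a2 and above Slc6a2 in 10 of 10 mice. Slc6a2, at 0.0956 ± 0.0492 CPM per kb, was followed by Slc18a3 (0.0744 ± 0.0870), Phox2a (0.0625 ± 0.0423), Slc5a7 (0.0445 ± 0.0232) and Dbh (0.0246 ± 0.0237), and no neighbours from Slc6a2 down to Dbh held their order in more than 6 of 10 mice. Chat stood last, with 1 read in 1 mouse.

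**Figure D1:**
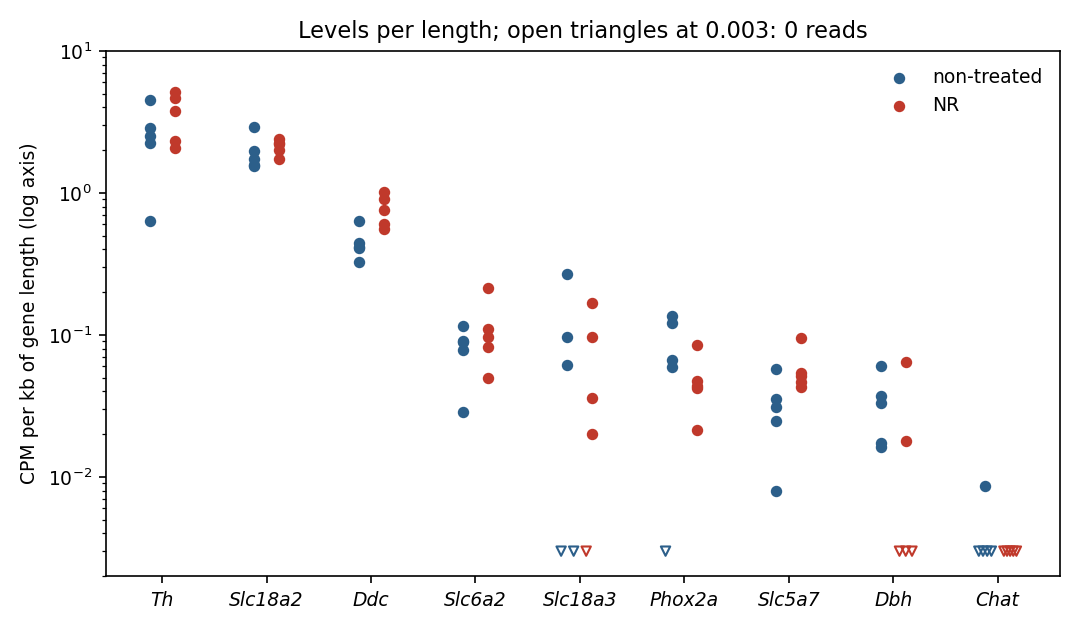
Level of each gene in each mouse in CPM per kb of gene length, on a log axis, with non-treated mice in blue and NR-treated mice in red. Th, Slc18a2 and Ddc lie above the other 6 genes in every mouse, and open triangles, drawn at 0.003, mark the libraries with 0 reads, 9 of them for Chat.

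Read numbers also depend on gene length, and by reads Slc18a2 came before Th. Over the 10 libraries, of 218116764 counted reads, 1544 fell on Th, 1671 on Slc18a2 and 579 on Ddc. Slc6a2 had 131 reads, with 4 to 28 per library. Dbh had 15 reads in 7 libraries, Phox2a 27 reads in 9 libraries, Slc18a3 40 reads in 7 libraries and Slc5a7 55 reads in 10 libraries. A count of 0 allows up to 3 reads, which is 0.123 to 0.176 CPM in these libraries, counting error only. Dbh exceeded 3 reads in 2 libraries and Phox2a in 2, so for most mice neither gene was separated from that limit. Dbh, which defines noradrenergic neurons, and Chat, which defines cholinergic ones, were thus at or near 0, and on these genes the data go against a label of autonomic and efferent neurons.

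The genes lie apart in the mouse genome, except for the cholinergic pair. In mm10, Th (ENSMUSG00000000214) spans chromosome 7 from 142892752 to 142931128 and Phox2a (ENSMUSG00000007946) chromosome 7 from 101818313 to 101822726. Ddc (ENSMUSG00000020182) spans chromosome 11 from 11814101 to 11898144, Dbh (ENSMUSG00000000889) chromosome 2 from 27165233 to 27183200, Slc18a2 (ENSMUSG00000025094) chromosome 19 from 59260878 to 59296012 and Slc6a2 (ENSMUSG00000055368) chromosome 8 from 92960079 to 93001667. Slc5a7 (ENSMUSG00000023945) lies on chromosome 17 from 54273590 to 54299034. Slc18a3 (ENSMUSG00000100241), on chromosome 14 from 32462438 to 32464850, lies wholly inside Chat (ENSMUSG00000021919), which spans 32408203 to 32465989 on the same strand. The 2 genes share 0 exonic bases in GENCODE M21, so Slc18a3 reads sit in Chat intronic sequence. Phox2a shares 95 exonic bases with Inppl1 and Slc18a2 shares 111 with Gm29261, each on the opposite strand. The counting took no account of strand, so reads from those stretches cannot be assigned to either gene.

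The promoters of 3 catecholamine genes are shown because these genes belong to 1 pathway but stood at the top (Th, Slc18a2) and near the bottom (Dbh) of the levels. Each runs 5′ to 3′ from 250 bases before to 50 bases after a RefSeq transcription start, on the strand of the gene. The starts are those of GRCm38.p6, where 8 of the 9 genes had an entry (Ddc with a pair of starts). For Th and Dbh the stretch lies inside the gene span given above, so annotated starts further upstream are not shown. Capitals mark TGACGTCA, the cyclic AMP response element, in Th and Slc18a2, and a pair of ATTA homeodomain cores with any 6 bases between them in Dbh. Both motifs were picked after these sequences were read, and both strands were searched. 
Th, chr7:142899946-142900245, minus strand: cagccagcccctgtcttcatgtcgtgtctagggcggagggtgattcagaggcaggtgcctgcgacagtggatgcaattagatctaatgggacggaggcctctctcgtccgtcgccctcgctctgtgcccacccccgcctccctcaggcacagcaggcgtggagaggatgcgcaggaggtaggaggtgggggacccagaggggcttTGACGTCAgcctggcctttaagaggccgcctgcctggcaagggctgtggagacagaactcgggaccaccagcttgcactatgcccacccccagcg
Slc18a2, chr19:59260628-59260927, plus strand: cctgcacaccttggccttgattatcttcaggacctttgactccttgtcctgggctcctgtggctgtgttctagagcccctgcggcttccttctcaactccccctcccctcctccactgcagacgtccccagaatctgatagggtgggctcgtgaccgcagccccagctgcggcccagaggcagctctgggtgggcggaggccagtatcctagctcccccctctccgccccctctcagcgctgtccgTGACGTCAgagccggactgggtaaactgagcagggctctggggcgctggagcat
Dbh, chr2:27165257-27165556, plus strand: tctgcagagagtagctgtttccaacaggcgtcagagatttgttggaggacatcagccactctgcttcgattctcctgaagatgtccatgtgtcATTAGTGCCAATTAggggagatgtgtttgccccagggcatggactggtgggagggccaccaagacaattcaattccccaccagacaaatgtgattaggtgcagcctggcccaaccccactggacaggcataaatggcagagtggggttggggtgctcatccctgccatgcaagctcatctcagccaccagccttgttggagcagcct

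TGACGTCA was found in 2 of the 9 promoter entries, those of Th and Slc18a2, and in 1.79% of 32851 mouse promoters of the same length. In Th it begins 45 bases before the start, and in Slc18a2 it begins 4 bases before it. The ATTA pair was found in Dbh alone among the 9 entries, 157 bases before the start, and in 0.825% of all promoters. A match is a description of these letters and was not tested for binding.

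No member passed an adjusted p of 0.05 between NR-treated and non-treated mice in edgeR's quasi-likelihood test, and 0 of 18329 tested genes (0%) did so. Of the 9 members, 4 passed the filter on low counts (Th, Ddc, Slc18a2 and Slc6a2), and the other 5 were read from a second fit that took in each of the 33224 genes with a read. The log2 fold change, positive where NR was higher, was above 0 in 4 of 4 tested members and in 47.1% of tested genes. At an unadjusted p of 0.05, 1 member, Ddc, was higher in NR-treated mice, where 9.71% of all tested genes lay past that threshold in either direction and 4.83% in the higher direction. DESeq2 gave 0 members at an adjusted p of 0.05 and the same count of 1 at an unadjusted p of 0.05, with 0.562% and 10.5% of all genes. In the all-gene fit, where 5 members were read, 7.46% of genes had an unadjusted p of 0.05, and 0 of those 5 did.

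Ddc, the enzyme that makes dopamine and serotonin from their precursors, had the clearest difference. In NR-treated mice, replicates 1 to 5, its level was 2.70, 3.35, 4.02, 2.49 and 4.51 CPM. In non-treated mice it was 1.83, 1.97, 1.45, 1.85 and 2.83 CPM. The groups overlapped only through Vehicle replicate 5, which lay above NR replicates 1 and 4. Mean levels were 3.41 ± 0.86 CPM (SD, n = 5) with NR and 1.99 ± 0.51 CPM (SD, n = 5) without, a 1.71-fold difference. The log2 fold change was 0.78 (standard error 0.23, unadjusted p = 0.00549 and adjusted p = 0.423 in edgeR). It stayed between 0.67 and 0.94 when any 1 mouse was left out, at unadjusted edgeR p-values of 0.00157 to 0.0146. Without the 4 libraries richest in the peripheral neuron gene Prph, of which NR held 3, it was 0.53 (standard error 0.31) and did not pass (unadjusted p = 0.1305 in edgeR). That comparison held only 2 NR-treated and 4 non-treated mice. Ddc has 2 starts in RefSeq, and counts per gene do not separate their transcripts.

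Th, the rate-limiting enzyme of catecholamine synthesis, varied more between mice than between groups. It was at 12.0, 5.45, 8.90, 4.88 and 10.98 CPM in NR-treated mice 1 to 5. In non-treated mice it was at 10.7, 5.34, 6.71, 1.497 and 5.98 CPM. NR replicates 1, 5 and 3 and Vehicle replicate 1 were highest, Vehicle replicate 4 lowest, and the groups overlapped. Mean levels were 8.45 ± 3.21 CPM and 6.05 ± 3.29 CPM (SD, n = 5 each). The log2 fold change of 0.48 (standard error 0.42) was within the spread between mice (edgeR, unadjusted p = 0.278, adjusted p = 0.717). Without Vehicle replicate 4 it was 0.24, and without Vehicle replicate 1 it was 0.79.

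**Figure D2:**
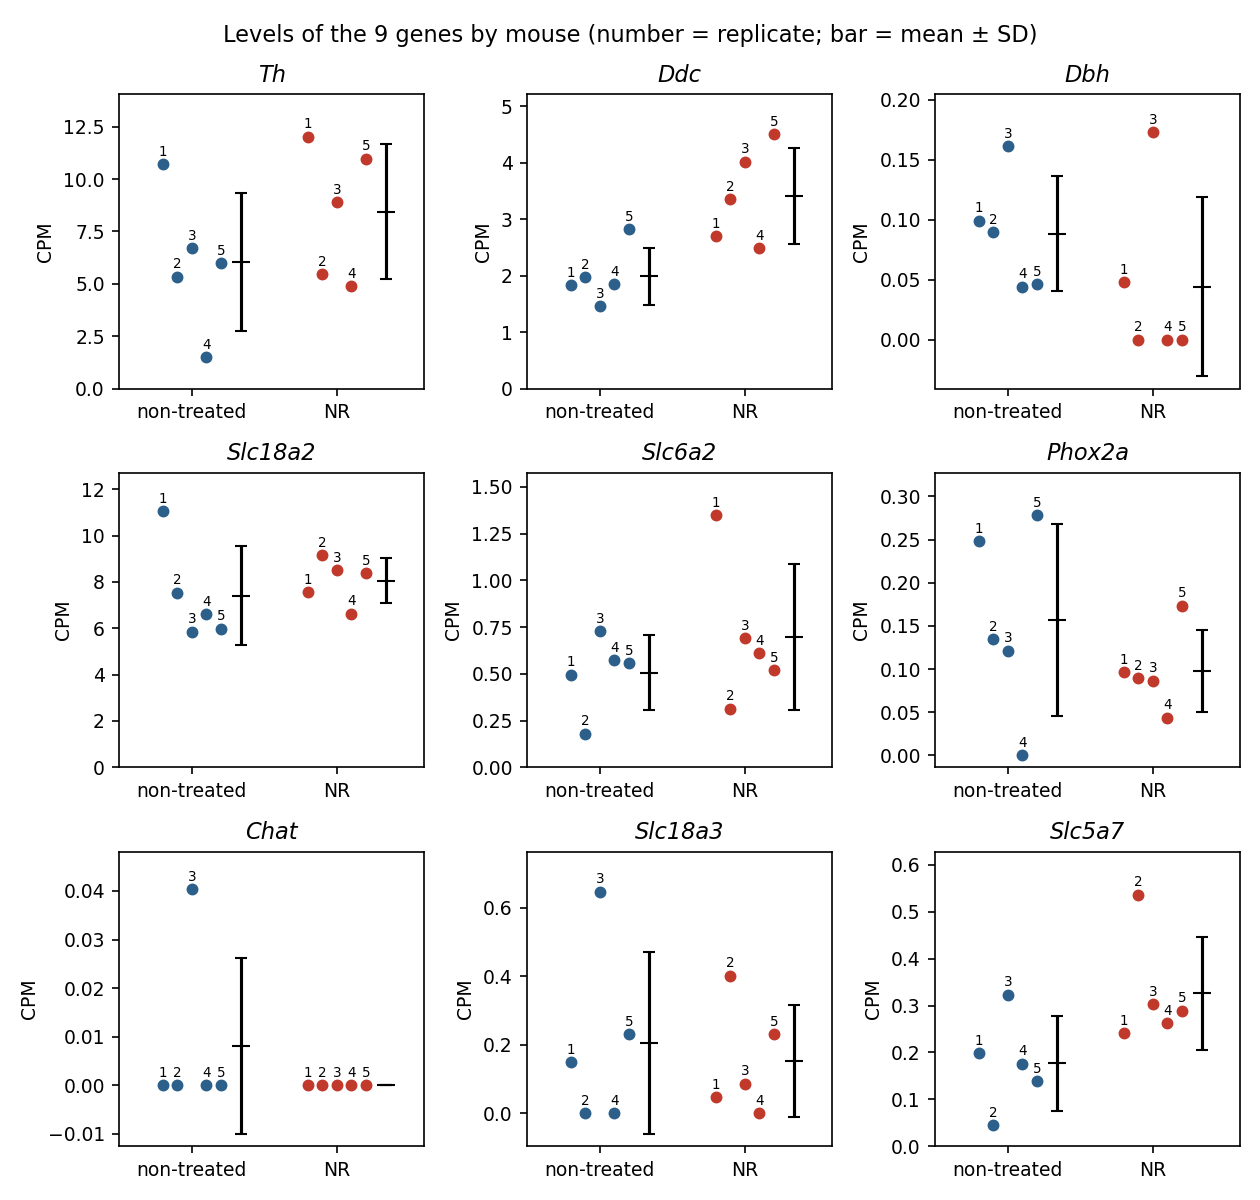
CPM of each of the 9 genes in each mouse, with the replicate number above its point and the group mean ± SD beside it. NR-treated and non-treated mice overlap in every panel, least in Ddc, and the axes of Dbh, Phox2a, Chat, Slc18a3 and Slc5a7 cover less than 1 CPM.

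Slc18a2 was the steadiest member. Its level in NR-treated mice 1 to 5 was 7.56, 9.16, 8.51, 6.63 and 8.38 CPM. In non-treated mice it was 11.1, 7.53, 5.86, 6.60 and 5.98 CPM. Vehicle replicate 1 was the highest of all 10 mice, and the other non-treated mice lay at or below 7.53 CPM. The means of 8.05 ± 0.98 CPM and 7.41 ± 2.14 CPM (SD, n = 5 each) gave a log2 difference of 0.12 ± 0.18 (standard error; edgeR adjusted p = 0.837). VMAT2 also loads serotonin and histamine, and genes of those amines were read in the same libraries. The histamine-making enzyme gene Hdc had 20.7 ± 5.93 CPM with NR and 14.0 ± 3.57 CPM without, the serotonin transporter gene Slc6a4 8.22 ± 2.75 and 9.84 ± 5.17 CPM, and the peripheral serotonin enzyme gene Tph1 0.391 ± 0.0665 and 0.568 ± 0.122 CPM (SD, n = 5 each). Their share in the Slc18a2 reads was not tested.

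Slc6a2 was read at a low level in every mouse. NR-treated mice 1 to 5 had 1.35, 0.313, 0.691, 0.611 and 0.520 CPM, and non-treated mice had 0.496, 0.179, 0.727, 0.572 and 0.557 CPM. NR replicate 1 lay above the rest, and without it the groups spanned similar ranges. The log2 fold change was 0.45 (standard error 0.42, adjusted p = 0.736 in edgeR), and 0.080 without NR replicate 1, its lowest value when 1 mouse was left out. For Dbh, NR-treated mice had 1, 0, 4, 0 and 0 reads and non-treated mice 2, 2, 4, 1 and 1, a log2 fold change of -0.86 with a standard error of 0.92 (unadjusted p = 0.369 in edgeR). For Phox2a the reads were 2, 2, 2, 1 and 3 with NR and 5, 3, 3, 0 and 6 without (log2 fold change -0.65, standard error 0.70, unadjusted p = 0.365 in edgeR). Neither difference passed the test. Without NR replicate 3, which held 4 of the 5 Dbh reads of its group, the log2 fold change of Dbh was -2.40 (unadjusted p = 0.0331, adjusted p = 0.734 in edgeR).

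The cholinergic members were read sparsely, and the highest libraries of Slc18a3 and Slc5a7 were the same. Chat had 0 reads in 9 mice and 1 read in Vehicle replicate 3, so no fold change is given. Slc18a3 had 1, 9, 2, 0 and 4 reads in NR-treated mice and 3, 0, 16, 0 and 5 in non-treated mice. Slc5a7 had 5, 12, 7, 6 and 5 reads with NR and 4, 1, 8, 4 and 3 without. NR replicate 2 and Vehicle replicate 3 were the highest libraries for Slc18a3 and for Slc5a7, 1 from each group, and the single Chat read came from the latter. The neuropeptide gene Vip, named here after its values were seen, was also highest in these libraries, at 3.66 and 3.19 CPM against at most 0.91 CPM in the other 8. The mean levels of Slc5a7 were 0.326 ± 0.120 CPM with NR and 0.176 ± 0.101 CPM without (SD, n = 5 each), and the log2 fold change of 0.87 (standard error 0.48) did not pass (edgeR unadjusted p = 0.0890, adjusted p = 0.633). Without Vehicle replicate 3 it was 1.21 (edgeR unadjusted p = 0.0343, adjusted p = 0.705). The log2 fold change of Slc18a3 was -0.44 (standard error 0.98, adjusted p = 0.892 in edgeR), and it turned to 0.67 without that library.

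The mice with the most Th were those with the most reads of a set of peripheral neuron genes. Prph encodes the intermediate filament peripherin of peripheral neurons. It stood at 118, 132 and 147 CPM in NR replicates 1, 3 and 5 and at 119 CPM in Vehicle replicate 1. Among the other 6 libraries, NR replicate 4 had 26.8 CPM and the rest 2.03 to 4.93 CPM. The 4 libraries richest in Prph also held the 4 highest levels of Th, from 8.90 to 12.0 CPM against 1.497 to 6.71 CPM. The homeobox genes Tlx2 and Tlx3, which mark peripheral neurons, were highest in the same 4 libraries. Tlx2 stood there at 7.35 to 10.1 CPM and at 1.70 CPM or less elsewhere. Tlx3 stood there at 11.4 to 16.6 CPM. It was also read in NR replicates 2 and 4, at 4.11 and 4.06 CPM, and at 0.42 CPM or less in the remaining non-treated mice. Prph, Tlx2 and Tlx3 were singled out after their values were seen. NR held 3 of these 4 libraries, so Prph content and treatment were unevenly matched, and a part of it in the levels of Th was not tested. Phox2a did not follow, with 5 reads at most in these 4 libraries and 6 in Vehicle replicate 5. Over the other 6 libraries (2 NR-treated and 4 non-treated), the log2 fold change of Th was 0.084 (unadjusted p = 0.876 in edgeR). The 4 libraries left out held the highest Th levels, and 3 were NR-treated, so the difference shrank by selection. This comparison is no test of a part of Prph content. In these smaller groups Ddc did not pass either. Thus 0 members were past an unadjusted p of 0.05, where 3.76% of the 18958 genes tested in these 6 libraries were.

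**Figure D3:**
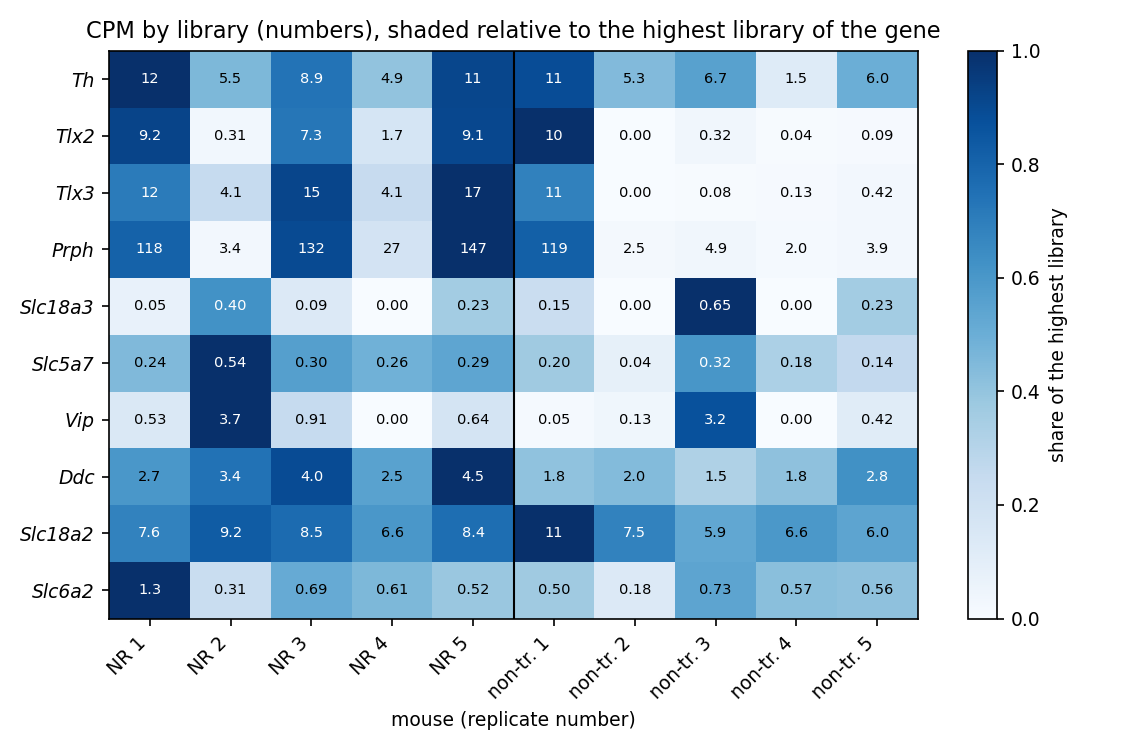
CPM of members and of marker genes in each library, printed in each cell and shaded relative to the highest library of that gene, with NR-treated mice left of the line. Th, Tlx2, Tlx3 and Prph are darkest in NR 1, 3 and 5 and non-treated 1, while Slc18a3, Slc5a7 and Vip are darkest in NR 2 and non-treated 3.

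The genes whose levels followed Th most closely over the 10 mice were Kcns3, Prdx4, Phlda3, BC052040 and Csdc2. Pearson's r with Th on log2 CPM was 0.97 for Kcns3, which encodes a modifying subunit of voltage-gated potassium channels, and 0.92 to 0.94 for the other 4. Spearman's rho was 0.98 for Kcns3 and 0.77 to 0.89 for the others. These are the highest of 18329 genes over points that share their libraries, given as a description. Chat was read too rarely for such a comparison.

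Of the other genes of catecholamine synthesis and storage, 9 of 10 passed the filter, and 2 were higher and 0 lower at an unadjusted p of 0.05, against 4.83% and 4.88% of all tested genes. Over these 9 the median log2 difference was 0.03, beside -0.01 over all tested genes. Pcbd1, which recycles the tetrahydrobiopterin cofactor of Th, had 5.50 ± 0.71 CPM with NR and 3.38 ± 0.69 CPM without (SD, n = 5 each), a log2 difference of 0.70 ± 0.16 (standard error; edgeR unadjusted p = 0.00126, adjusted p = 0.408). In 4 of 5 NR-treated mice it lay above every non-treated mouse. Slc18a1, the vesicular monoamine transporter VMAT1 of endocrine cells, had 2.80 ± 0.35 and 1.97 ± 0.47 CPM (SD, n = 5 each; edgeR unadjusted p = 0.0197). Pnmt, which makes adrenaline, was below the filter, with 6 to 20 reads with NR and 1 to 11 without (log2 fold change 1.61, standard error 0.56, adjusted p = 0.592 in edgeR). The most abundant gene of the list, the cofactor enzyme gene Spr, differed by 0.032 ± 0.049 (log2, standard error).

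Catecholamine breakdown had 7 tested genes, with 1 higher and 1 lower at an unadjusted p of 0.05 (4.83% and 4.88% of all tested genes). Monoamine oxidase A (Maoa) was at 27.2 ± 0.88 CPM with NR and 24.8 ± 0.74 CPM without, every NR-treated mouse above every non-treated mouse, as in 0.775% of all tested genes. The log2 difference was 0.13 ± 0.053 (standard error; edgeR adjusted p = 0.476). Monoamine oxidase B (Maob) was at 12.1 ± 1.78 and 16.7 ± 2.34 CPM (SD, n = 5 each), a log2 difference of -0.47 ± 0.13 (standard error; edgeR unadjusted p = 0.00345, adjusted p = 0.408). The most abundant, Aldh2, had a log2 fold change of -0.020. The median of the list was -0.02.

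Acetylcholine breakdown and choline supply had 12 tested genes, none with an unadjusted p of 0.05 in edgeR and 6 in each direction, at a median log2 difference of 0.04. Acetylcholinesterase (Ache) had 177 ± 16.4 CPM with NR and 154 ± 36.5 CPM without (SD, n = 5 each; unadjusted p = 0.202 in edgeR), so the enzyme that breaks acetylcholine down was abundant where Chat was hardly read. Acly, which supplies acetyl-CoA, was the most abundant of the list. The acetylcholine receptor subunits of hair cells, Chrna9 and Chrna10, and their partner channel Kcnn2 had log2 fold changes of -0.78, -0.65 and -0.14, none past an unadjusted p of 0.05. The hair cell list, 8 of 8 tested genes with a negative log2 fold change and a median of -0.51, moved with them, and its part in their values was not tested.

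**Figure D4:**
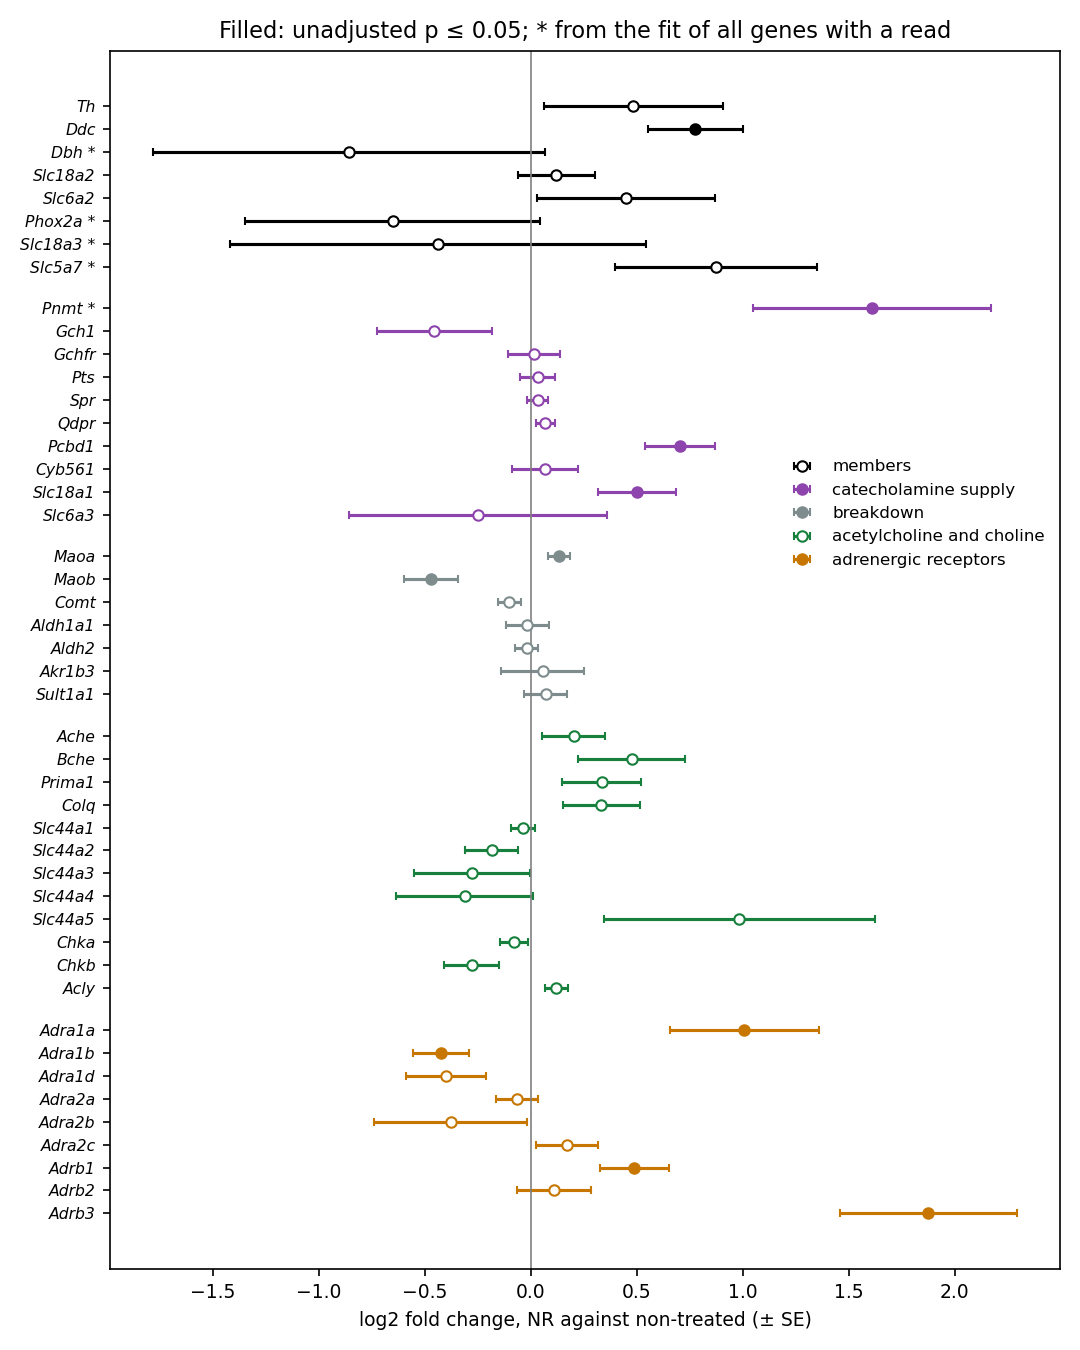
Log2 fold change of NR-treated against non-treated mice with its standard error for the members other than Chat and for 4 lists of their pathways, where filled points had an unadjusted p of 0.05 or less in edgeR. Ddc is the only filled member, and the filled points of the other lists lie on both sides of 0.

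All 9 adrenergic receptor genes were tested, and 3 were higher and 1 lower at an unadjusted p of 0.05 (4.83% and 4.88% of all tested genes), at a median log2 difference of 0.11. Adrb3, the beta receptor of adipocytes, had 1.71 ± 0.90 CPM with NR and 0.468 ± 0.218 CPM without (log2 fold change 1.87, standard error 0.42, adjusted p = 0.370 in edgeR). Adrb1 had 5.42 ± 0.82 and 3.86 ± 0.73 CPM, with every NR-treated mouse above every non-treated mouse, as in 0.775% of all tested genes (edgeR adjusted p = 0.436). Adra1a had 0.957 ± 0.489 and 0.472 ± 0.126 CPM, and Adra1b, lower with NR, had 11.6 ± 1.82 and 15.6 ± 2.03 CPM (SD, n = 5 each; edgeR adjusted p = 0.453 and 0.423). The most abundant receptor gene, Adra2a, a presynaptic brake on noradrenaline release, had 31.4 ± 0.97 and 32.8 ± 5.33 CPM (unadjusted p = 0.528 in edgeR).

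Among 15 other transcription factors of autonomic and efferent neurons, 8 were tested, and their median log2 difference was -0.21. Isl1 and Gata2 were abundant, at 64.7 and 60.3 CPM with NR and 69.0 and 66.7 CPM without, while Hand1 and the motor neuron factor Mnx1 had 0 reads in all 10 libraries. Hand2, a factor of sympathetic neurons, had 0 to 4 reads per library. Of 20 other genes used by autonomic ganglion neurons, 17 were tested, and 7 were higher and 0 lower at an unadjusted p of 0.05 (4.83% and 4.88% of all tested genes), at a median log2 difference of 0.75. The smallest p-values were those of Scg2, a granin (log2 fold change 0.99), the nicotinic receptor genes Chrnb4 (1.18) and Chrna3 (1.07), and Sncg (0.90), at adjusted p-values of 0.408 to 0.455 in edgeR. The most abundant member of this list, the granin gene Chgb, had 226 and 240 CPM in libraries with 0 to 4 Dbh reads. Without the 4 libraries richest in Prph, 7 of 18 tested genes of this list were higher at an unadjusted p of 0.05 and 0 lower. Of all genes tested in the libraries kept, 3.76% passed in either direction. The libraries kept were not even in Prph, which is itself on this list. NR replicate 4, 1 of the 2 NR-treated mice kept, had 26.8 CPM of Prph, and the 4 non-treated mice kept had at most 4.93 CPM. Peptides and GABA enzymes of olivocochlear neurons had 4 of 8 genes tested, with 0 past an unadjusted p of 0.05 in edgeR, the most abundant being Penk at 50.4 ± 15.5 and 49.5 ± 19.7 CPM (SD, n = 5 each).

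Markers of other cells also differed between libraries. For the counts that follow, 4.83% of all tested genes were higher and 4.88% lower at an unadjusted p of 0.05. Skeletal muscle genes had a summed level of 9.43 to 672 CPM in NR-treated and 8.26 to 61.1 CPM in non-treated mice, highest in NR replicates 3 and 5, which were also the highest for Ddc, and 4 of 8 tested genes were higher at an unadjusted p of 0.05. Mast cell and basophil genes summed to 17.8 to 51.0 and 17.4 to 33.0 CPM, with 2 of 8 tested genes higher (Cma1 and Hdc). Platelet genes summed to 130 to 328 and 93.0 to 588 CPM, with 0 of 5 past an unadjusted p of 0.05. Of 7 tested chromaffin and glomus cell genes, 3 were higher (Kcnk3, Epas1 and Slc18a1), while Chga and Chgb had log2 fold changes of -0.0094 and -0.085. Schwann cell genes had 0 of 8 higher and 1 lower, spiral ganglion genes 3 of 13 higher and 1 lower, and central glia genes 0 of 6 in either direction. The part of these cells in the levels of the members was not tested.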

How the data were processed

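RNA was sequenced from the cochlea in 5 NR-treated and 5 non-treated libraries, from poly(A) RNA with paired-end reads. The files that the authors deposited hold whole-number read counts per gene without normalization, with a gene length in bases beside them. Reads were aligned to mm10 with STAR version 2.6.1d and counted with featureCounts version 1.5.0 in its default mode, without strand. The annotation release is not given in the sources used here.

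Counts were tested here with edgeR version 4.0.16 (TMM, filterByExpr, glmQLFit and glmQLFTest, no covariate) in R version 4.3.3, with p-values adjusted by the Benjamini-Hochberg method over all 18329 tested genes, or all 33224 genes with a read for members that the filter left out. The standard error is the log2 fold change divided by the square root of F. CPM used library totals times TMM factors, and log2 CPM a prior count of 2. Depth lay between 17060379 and 24419230 reads per mouse. No pair of libraries agreed within counting noise. The test was checked on simulated data. Alternatives were DESeq2 version 1.42.0, other scalings and filters, robust dispersion estimates, a replicate block and leaving out each mouse. Figures were drawn with matplotlib version 3.10.9 in python version 3.11.15.

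The members and lists were chosen with earlier results of these data known. Named are all members, in each other list up to 4 genes of smallest unadjusted p (0.05 or less), its most abundant gene and its genes at 0, and the 5 genes most like Th. Genes named outside this rule are Tlx2, Tlx3, Prph, Vip and those named to describe a list, all chosen after their values were seen. Some genes of the lists are not reported here.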

Additional observations from a re-analysis of the deposited data

Results flagged for a closer look

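Each of the 9 genes was checked for a mouse far from the other 4 of its group, 18 groups in all. Chance marks about 1 in 20 such groups where values are normally distributed, a rate that does not hold for counts of a few reads. Chat, at 0 in every NR-treated mouse, could not be marked there. In 3 of the groups the highest mouse was separated from the next by over 0.71 of the range of its group. Dbh reached 0.173 CPM in NR replicate 3, from 4 reads, against 0.0481 CPM in the next mouse. Chat reached 0.0404 CPM in Vehicle replicate 3, from 1 read, against 0 in the other non-treated mice, a pattern that the rule always marks. Slc5a7 reached 0.536 CPM in NR replicate 2, from 12 reads, against 0.303 CPM in the next. All 3 values rest on few reads.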

How the results depend on the processing

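Across the alternatives, 0 members passed an adjusted p of 0.05. The count of members past an unadjusted p of 0.05, 1 in the reported test, was 1 to 2 when 1 mouse was left out, 2 with the replicate block, 0 without the 4 libraries with at least 1000 Prph reads and 2 without the 2 libraries with the most hair cell reads (Vehicle replicates 3 and 4). The last pair of settings was chosen after the data were seen. The gene added was Th under the block (log2 fold change 0.60), Dbh without NR replicate 3 (-2.40), Slc18a2 without Vehicle replicate 1 (0.31), and Slc5a7 without Vehicle replicate 3 (1.21) or without both hair-cell-rich libraries (1.34). Ddc dropped out without the 4 Prph-rich libraries (0.53), where 2 NR-treated and 4 non-treated mice remained. Signs turned for Slc18a3 without Vehicle replicate 3 (0.67, with -1.23 to 0.67 over the mice left out) and without both hair-cell-rich libraries (0.26), for Slc18a2 without the latter (-0.018), and for Slc6a2 without the 4 Prph-rich libraries (-0.14). The cause was not tested.

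Replicate numbers shared by the groups did not pair the mice, since same-numbered deviations correlated at -0.22 to 0.17, and the block is given only as an alternative. Over all genes, 886 were higher and 894 lower at an unadjusted p of 0.05. These counts were 669 to 1414 and 484 to 1059 when 1 mouse was left out, 1414 higher among all genes with a read, 574 lower with library totals in place of TMM, and 359 and 353 without the 4 Prph-rich libraries. At an adjusted p of 0.05, DESeq2 called 103 genes, and leaving out 1 mouse gave 0 to 1. Depth limits Dbh, Phox2a, Chat, Slc18a3 and Slc5a7 most, with at most 16 reads per library.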

Other observations

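The sensory neuropeptide gene Calca, which encodes the precursor of CGRP, a peptide of both olivocochlear efferent and pain-sensing fibers, followed neither Th nor the cholinergic genes over the libraries. It was at 31.8 CPM in NR replicate 4 and 18.05 CPM in Vehicle replicate 1, and at 4.76 CPM or less in the other 8 mice. Gad2, which makes GABA, had 63 reads in NR replicate 2 and 0 to 5 in every other library. These genes were chosen after their values were seen, and no test of them was made beyond the comparison of groups. There the log2 fold change of Calca was 0.49 with a standard error of 0.89 (adjusted p = 0.870 in edgeR). Gad2 was below the filter, and in the all-gene fit its log2 fold change was 2.99 with a standard error of 1.39. Its unadjusted p was 0.0498 and its adjusted p 0.633 in edgeR, a value that rests on NR replicate 2.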
